A study of Mus musculus with 2 samples.

Results

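The miR-297, miR-466, miR-467 and miR-669 miRNAs are related mouse miRNAs whose hairpins mostly lie side by side inside the gene Sfmbt2. Members were all names in a table of mature miRNAs that begin with 1 of these 4 family names, with either arm, and 80 of 1915 names met this rule. The counts came from small RNA sequencing of unstimulated bone marrow derived macrophages (BMDMs), which are macrophages grown in culture from marrow cells, of wild type C57/BL6 mice aged 8 weeks. There were 2 libraries, labelled as biological replicates 1 and 2 of this single condition, with 7322969 and 8094314 counts in total. No treated or mutant group was compared, so each comparison was between the 2 libraries or between names.

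A miRNA is cut from a hairpin whose 5′ and 3′ arms (5p and 3p) can each give a mature strand, and bases 2 to 8 of that strand, the seed, pair with target mRNAs. Sfmbt2 encodes a Polycomb group protein and is an imprinted gene, expressed from the paternal copy in extraembryonic tissue. Its miRNA cluster arose in rodents by repeated duplication, so that many of its hairpins are close copies of each other and their reads can be hard to assign to a single name.

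In the GENCODE vM21 annotation of GRCm38, Sfmbt2 (ENSMUSG00000061186.15) was at chr2:10370510-10595253 on the plus strand. Of 82 annotated hairpin genes of the 4 families, 72 lay within Sfmbt2, all 72 on its strand, from Mir466m to Mir669h over 51617 bases. They lay within a single intron, which is intron 10 or intron 11 depending on the annotated transcript. The other 10 hairpin genes were on 7 other chromosomes. By name, 64 members had hairpins in Sfmbt2 alone, 5 had hairpins both there and elsewhere and 9 had hairpins elsewhere alone. The 2 names of miR-466a were not matched. The hairpin gene Mir466 within Sfmbt2, whose name has no letter, matched no member, and whether it gives miR-466a was not tested.

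Mature sequences from RefSeq (GRCm38.p6) were matched for 8 of the 80 members, all with hairpins outside Sfmbt2. They are shown because their alternating bases are the feature that these names share, with the seed in capitals.
miR-466i-3p: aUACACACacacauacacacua
miR-466j: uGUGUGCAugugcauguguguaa
miR-466k: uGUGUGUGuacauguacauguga
miR-466q: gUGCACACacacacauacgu
miR-467f: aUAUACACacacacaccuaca
miR-467g: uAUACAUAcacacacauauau
miR-467h: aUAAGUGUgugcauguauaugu
miR-669n: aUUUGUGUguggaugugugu
miR-466i-3p lies at chr13:17747552-17747573 and miR-466k at chr3:85467396-85467418, both on the plus strand, and the others lie on chromosomes 3 (miR-466q and miR-669n), 5 (miR-467g), 9 (miR-467h), 10 (miR-466j) and 11 (miR-467f). The 8 sequences had 8 different seeds. The letters UGUGUGU or their reverse complement ACACACA were in 7 of the 8, against 16 of the 1623 names of the table with a sequence (0.986%). The following GU-rich miRNAs from outside the families hold the same letters and are shown for comparison.
miR-574-5p: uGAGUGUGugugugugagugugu
miR-1187: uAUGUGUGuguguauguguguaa
Aligned without gaps over at least 16 bases, miR-466i-3p differed at 2 bases from miR-467g and from miR-467f, miR-466j differed at 2 bases from miR-467h, and miR-669n differed at 2 bases from miR-1187. None of these 4 pairs had equal counts.

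The labelled cell type was checked against miRNA markers. The 6 macrophage and myeloid markers summed to 35.7% of counts in replicate 1 and 35.4% in replicate 2. Most of this sum was miR-21a-5p, at 28.0% and 25.7%. miR-142a-5p had 3.70% and 2.93%, miR-146a-5p 2.76% and 5.96%, miR-223-3p 0.605% and 0.448%, and miR-142a-3p 0.601% and 0.363%. miR-155-5p had 725 and 359 counts, fewer than the smooth muscle and fibroblast marker miR-143-3p at 1370 and 949. The 5 epithelial markers summed to 0.0153% and 0.0167%, and the smooth muscle and fibroblast markers miR-143-3p and miR-145a-5p to 0.0189% and 0.0119%. The lymphoid marker miR-150-5p had 202 and 88 counts, the endothelial miR-126a-3p 103 and 88, the erythroid miR-451a 7 and 8, and the neural miR-9-5p 12 and 11. The neural miR-124-3p had 0 counts in both libraries, which allows up to 0.410 and 0.371 counts per 1000000 counts (CPM). Intervals and such limits cover counting error only, since the libraries were amplified by PCR and carried no molecular identifiers.

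Most members were detected, at low levels. At least 1 count in both libraries was found for 63 of 80 members (78.8%), against 776 of all 1915 names (40.5%). A further 7 members had counts in replicate 1 alone, 1 (miR-467f) in replicate 2 alone, and 9 had 0 counts in both. Over all 1915 names these numbers were 115, 122 and 902. The families differed in detection in both libraries, with 6 of 6 names for miR-297, 28 of 31 for miR-466, 9 of 13 for miR-467 and 20 of 30 for miR-669. Members with hairpins in Sfmbt2 alone were detected in both libraries for 52 of 64 names, and those with hairpins elsewhere alone for 4 of 9 names. The median member had 19.5 counts in replicate 1 and 9 in replicate 2.

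The families were set beside 2 chosen clusters, which do not stand for miRNA clusters in general. Of 111 names of the imprinted Dlk1-Dio3 cluster, 8 were detected in both libraries, with 34 summed counts in each library and miR-127-3p the most abundant at 12 and 11. All 32 names of an X-linked rodent cluster had 0 counts in both libraries. The miR-297, miR-466, miR-467 and miR-669 names summed to 8210 and 5025 counts, above both other clusters in each library.

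These sums were 0.112% of replicate 1 (95% Wilson interval 0.110% to 0.115%) and 0.0621% of replicate 2 (0.0604% to 0.0638%), a mean of 0.0871% ± 0.0354 (SD, n = 2). The share was 1.81 times higher in replicate 1. The intervals did not overlap, but they take every count as a separate read. They are too narrow where names share reads, which was not tested. miR-21a-5p alone had 250 times the summed member counts in replicate 1 and 414 times in replicate 2. Names with hairpins in Sfmbt2 alone held 7598 and 4623 of the member counts, and the 9 names with hairpins elsewhere alone held 66 and 44.

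By family, miR-466 had 370 and 248 CPM, miR-467 had 338 and 184, miR-669 had 389 and 177, and miR-297 had 24.0 and 11.9. All 4 sums were higher in replicate 1. miR-669 had the highest sum in replicate 1 and miR-466 in replicate 2. With each set of equal counts entered once, the sums were 309 and 206 CPM for miR-466, 210 and 115 for miR-467, 233 and 106 for miR-669, and 12.8 and 5.93 for miR-297, but 5 miR-466 3p names of nearly the same counts, described below, still entered this sum 4 times. With these also entered once, miR-466 had 141 and 90.3 CPM, below miR-467 and miR-669 in both libraries, so the order of the 3 families depends on how such names are entered.

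**Figure D1:**
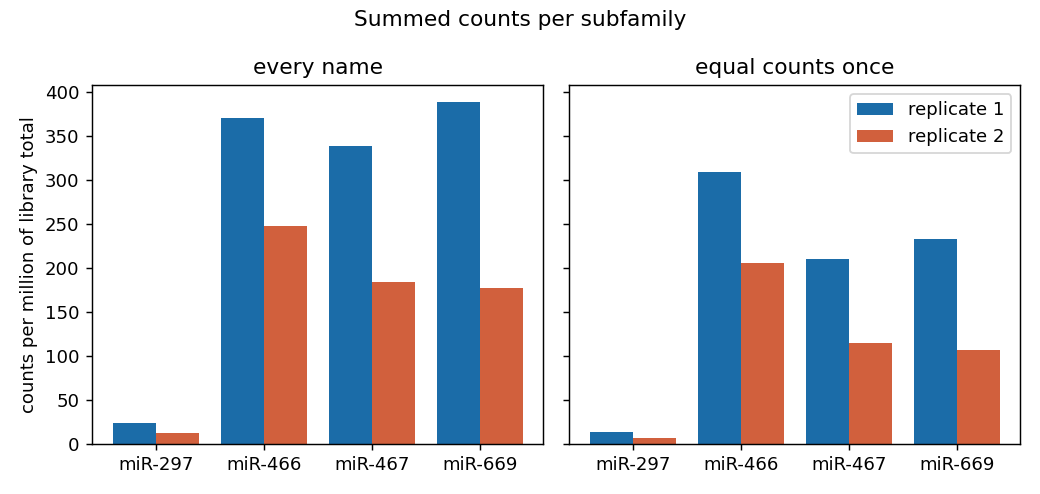
Bars give the summed CPM of the library total for each family in replicates 1 and 2, with every name entered (left) and with each set of names of equal counts entered once (right). All 4 families are higher in replicate 1 in both panels, while the order of miR-466, miR-467 and miR-669 differs between the panels in replicate 1 and is the same in both panels in replicate 2.

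Counts were concentrated in the 22 names whose summed count reached 100, which held 89.8% of member counts in replicate 1 and 91.6% in replicate 2. In miR-669, miR-669a-3p and miR-669o-3p had 652 counts each in replicate 1 and 247 each in replicate 2. miR-669a-5p and miR-669p-5p had 489 and 327 counts. These were followed by miR-669c-5p with 129 and 81, miR-669b-5p with 108 and 46, and miR-669o-5p with 81 and 50. All 7 names were higher in replicate 1.

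In miR-467, miR-467a-5p and miR-467b-5p had 589 counts each in replicate 1 and 363 each in replicate 2, the highest summed count of any member. miR-467a-3p and miR-467d-3p had 350 and 198 counts. miR-467c-5p had 218 and 124, miR-467e-5p 199 and 100, and miR-467d-5p 149 and 132. miR-467d-5p differed least between the libraries among these 7 names.

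In miR-466, 5 names had nearly the same counts. miR-466e-3p had 427 and 325 counts, miR-466c-3p and miR-466p-3p had 426 and 325, miR-466b-3p had 407 and 313 and miR-466a-3p had 399 and 296. The remaining names were lower, with miR-466g at 87 counts in both libraries, miR-466d-3p at 77 and 74, and miR-466c-5p at 79 and 55. No miR-297 name reached 100 summed counts. Of the other 58 members, 34 had 10 to 99 summed counts, 15 had 1 to 9 and 9 had 0.

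**Figure D2:**
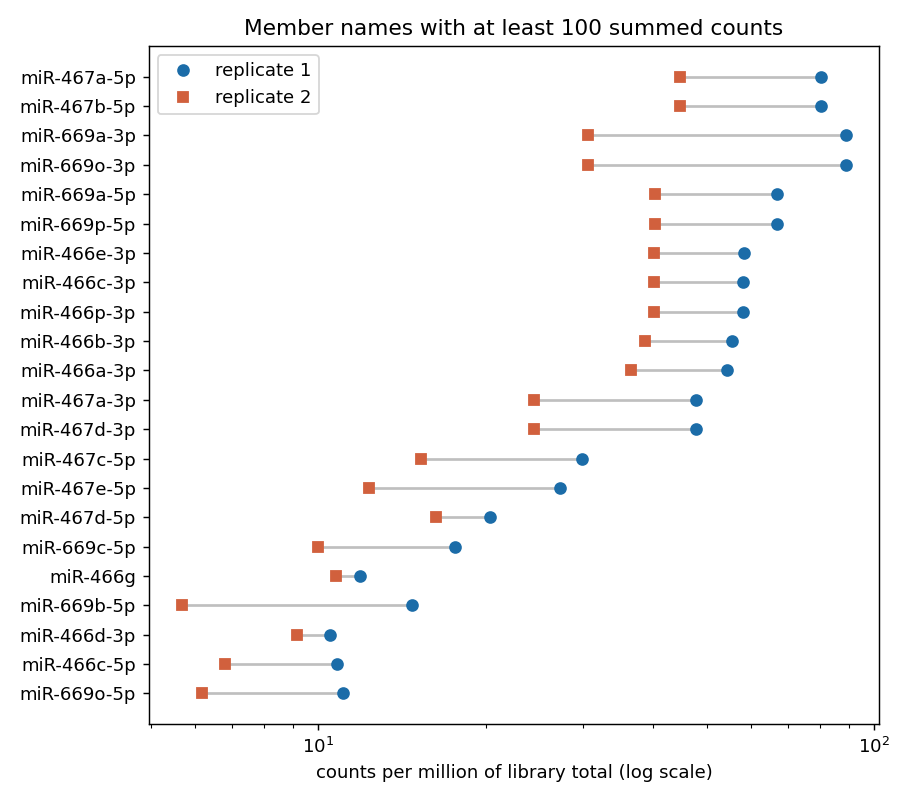
Each row is a member with at least 100 summed counts, with its CPM of the library total on a log axis in replicate 1 (circles) and replicate 2 (squares). All 22 names lie higher in replicate 1, and 5 pairs of names lie at the same values.

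Several of these names could not be told apart by their counts. Among members with at least 10 summed counts, 25 of 56 had the same count as another name in both libraries, and for 19 of the 56 that name was another member. Among all other names 95 of 532 (17.9%) had an equal. Equal counts also occurred with names of other families, such as miR-466h-5p and miR-3098-5p at 28 and 25 counts. Whether such names share reads was not tested. At 100 or more summed counts 10 of 22 members had an equal, each time another member, against 2 of 304 other names (0.658%).

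The 19 members formed 9 groups. The abundant groups were miR-467a-5p with miR-467b-5p, miR-669a-3p with miR-669o-3p, miR-669a-5p with miR-669p-5p, miR-466c-3p with miR-466p-3p and miR-467a-3p with miR-467d-3p. miR-297a-3p, miR-297b-3p and miR-297c-3p had 41 and 24 counts each. miR-466f and miR-466f-5p had 14 and 5, miR-466d-5p and miR-466n-5p 8 and 9, and miR-466m-5p and miR-669m-5p 6 and 6. Names of other families also had 14 and 5, 8 and 9, and 6 and 6 counts. With each set of equal counts entered once, the member sums fell to 5590 and 3496 counts, and the ratio of replicate 1 to replicate 2 was 1.77.

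Names with equal counts in 1 arm differed in the other. miR-467a-3p had 350 and 198 counts while miR-467b-3p had 1 and 0. miR-669a-3p had 652 and 247 counts and miR-669p-3p 11 and 3. miR-669a-5p had 489 and 327 counts and miR-669o-5p 81 and 50. In each of these comparisons the name with miR-467a or miR-669a was the higher. These have 10 and 12 annotated hairpins in Sfmbt2, miR-467b and miR-669o have 1 each and miR-669p has 2. Hairpin number did not order the 5p counts of the miR-466 names with nearly equal 3p counts. miR-466b with 8 hairpins had 44 and 17, below miR-466c with 3 at 79 and 55. miR-466e and miR-466p, with 1 each, had 23 and 8, and 26 and 8. A relation of hairpin number to counts was not tested.

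Arm use differed between the families. Over the names of a family that carry an arm label, which leaves out names such as miR-466g, the 5p arm held 12.4% and 9.51% of counts in miR-466, 70.4% and 72.7% in miR-467, 51.0% and 63.3% in miR-669, and 30.1% and 25.0% in miR-297. With each set of equal counts entered once, these were 14.6% and 11.0% in miR-466, 75.1% and 77.5% in miR-467, 56.4% and 67.6% in miR-669, and 56.4% and 50.0% in miR-297, so the lower 5p share of miR-297 rested on its 3 names of equal 3p counts. With the nearly equal miR-466 3p names also entered once, the 5p arm held 33.9% and 27.0% in miR-466. Of 19 hairpin names with at least 100 counts over both arms, 8 had more 5p counts in both libraries. Another 9 had more 3p counts in both. For miR-669a and miR-466h the arm with more counts differed between the libraries. For miR-466h this rested on few counts, 28 in 5p and 31 in 3p in replicate 1 and 25 and 16 in replicate 2. The arm use of miR-466h did not pass the test between the libraries (adjusted p = 0.421 by Fisher's exact test).

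The 3p arm was the major arm of miR-466a, with 2.92% and 0.337% of counts in 5p, of miR-466e (5.11% and 2.40%), miR-466p (5.75% and 2.40%), miR-466b (9.76% and 5.15%), miR-466d (9.41% and 10.8%) and miR-466c (15.6% and 14.5%). It was also the major arm of miR-669o (11.1% and 16.8%), miR-467d (29.9% and 40.0%) and miR-297a (47.4% and 33.3%). The 5p arm was the major arm of miR-467b (99.8% and 100%), miR-669p (97.8% and 99.1%), miR-669c (96.3% and 100%), miR-467c (94.8% and 93.9%), miR-669b (93.9% in both), miR-467e (91.3% and 97.1%), miR-467a (62.7% and 64.7%) and miR-669f (62.9% and 52.9%). miR-669a had 42.9% and 57.0% of counts in 5p, and miR-466h had 47.5% and 61.0%. Percentages of hairpin names that have an arm of equal counts, such as miR-467b and miR-669p, use counts that another name also holds.

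Arm use was compared between the libraries by Fisher's exact test (2-sided) with Benjamini-Hochberg adjustment over 160 hairpins. It differed for 4 of 22 member hairpins tested, beside 55 of 160 hairpins over the whole table (34.4%). The share of 5p was higher in replicate 2 for miR-669a (adjusted p = 3.17e-07), miR-467d (adjusted p = 0.00952) and miR-669o (adjusted p = 0.0394), and lower for miR-466a (adjusted p = 0.0311). The test compares the reads of these libraries and covers counting error only. miR-669a and miR-669o share the same 3p counts, so their results are not separate. The hairpins called depended on the filter. With a minimum of 50 counts in each arm 4 of 6 differed, beside 54 of 106 hairpins over the whole table (50.9%). Of these 4, 3 were the same and the other was miR-466b. miR-466a had too few 5p counts to be tested. With a minimum of 10 counts over both arms together 2 of 30 differed, miR-467d and miR-669a, beside 52 of 305 (17.0%). Without hairpins that have an arm of equal counts 2 of 6 differed, miR-466a and miR-466b, beside 54 of 118 (45.8%). The other 3 hairpins were then left out. miR-466b was named after its values were seen.

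**Figure D3:**
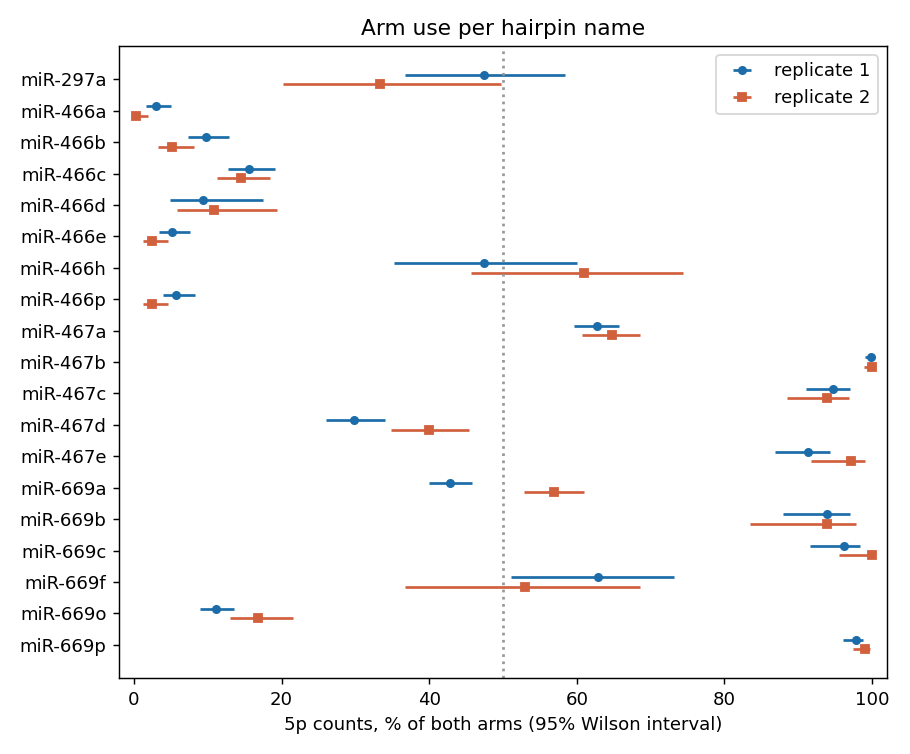
Points give the 5p counts as a percent of both arms for the 19 hairpin names with at least 100 counts, in replicate 1 (circles) and replicate 2 (squares), with 95% Wilson intervals. The miR-466a to miR-466e and miR-466p hairpins lie below 20% and miR-467b, miR-467c, miR-467e, miR-669b, miR-669c and miR-669p above 90%, and the intervals of miR-669a lie on either side of 50%.

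Most tested members had a lower share in replicate 2. Each name's count was compared with the rest of its library by Fisher's exact test (2-sided), with Benjamini-Hochberg adjustment over the 588 names of the table with at least 10 summed counts. Of 56 members tested, 36 were lower in replicate 2 at an adjusted p under 0.05, beside 30.4% of all names tested (179 of 588), and 0 were higher, beside 13.8% of all names tested (81 of 588). As a log2 ratio of replicate 2 over replicate 1, the median was -0.88 for the members and -0.16 for all names tested, a difference of -0.72. With library totals the ratio was below 0 for 54 of the 56 members, beside 315 of the 532 tested names outside the families. The other 2 members were miR-466d-5p and miR-466n-5p with 8 and 9 counts. The test compares these libraries, not conditions, and covers counting error only, so the spread between further cultures is not measured by it.

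Scaling moved the background of this comparison. With TMM, a scaling that assumes most names are unchanged, 137 names were lower and 122 higher, so that 52.9% of calls were lower instead of 68.8%, and the median over all names was -0.03. With DESeq2 size factors 127 were lower and 124 higher, and the median was -0.02. Under both scalings 29 members were lower and 0 were higher, with a members' median of -0.75 and -0.74. Either scaling moves every ratio by the same amount, so the difference between both medians cannot change with it.

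Among members with at least 100 summed counts, 19 of 22 were lower in replicate 2, beside 146 of 326 of all names with that many counts (44.8%). The lowest log2 ratio was that of miR-669a-3p and miR-669o-3p at -1.54 ± 0.11 (counting SE), with adjusted p = 3.15e-51. miR-669b-5p was at -1.38 ± 0.25 and miR-467e-5p at -1.14 ± 0.18. The 5 miR-466 3p names with nearly the same counts were between -0.58 for miR-466a-3p and -0.52 for miR-466b-3p. The highest ratio was that of miR-466g at -0.14 ± 0.22 (adjusted p = 0.701). miR-466d-3p at -0.20 and miR-467d-5p at -0.32 also did not pass the test, and miR-466c-5p at -0.67 passed it with library totals but not with TMM or DESeq2 scaling.

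By family, 11 of 17 tested miR-669 names, 7 of 9 miR-467 names, 14 of 25 miR-466 names and 4 of 5 miR-297 names were lower in replicate 2, beside the 30.4% of all names tested. These counts use library totals, with which 36 members were lower. The 29 members lower with TMM or DESeq2 scaling were not split by family. Names of equal counts are not separate calls, and 3 of the 4 miR-297 names (miR-297a-3p, miR-297b-3p and miR-297c-3p) are such a set. The log2 ratio of the family sums was -1.13 for miR-669, -1.02 for miR-297, -0.88 for miR-467 and -0.58 for miR-466. Among names with hairpins elsewhere alone, miR-466k was lower with library totals, at 18 and 7 counts (adjusted p = 0.0365 by Fisher's exact test). miR-466i-5p (24 and 18) and miR-466i-3p (22 and 16) did not pass the test.

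The GU-rich miR-574-5p, shown above, had 424 and 356 counts and a log2 ratio of -0.40 (adjusted p = 0.000447), and miR-1187 had 5 and 2 counts. Of the 9 names outside the families that hold UGUGUGU or ACACACA, the other with at least 10 summed counts was miR-32-3p, with 39 and 19 counts and a log2 ratio of -1.18 (adjusted p = 0.00912). Markers also differed between the libraries. With library totals, 5 of the 6 macrophage and myeloid markers were lower in replicate 2, with log2 ratios of -1.16 for miR-155-5p, -0.73 for miR-142a-3p, -0.43 for miR-223-3p, -0.34 for miR-142a-5p and -0.12 for miR-21a-5p, and miR-146a-5p was higher at 1.11. miR-21a-5p was higher in replicate 2 with TMM and DESeq2 scaling. Of the 5 epithelial markers, miR-200c-3p at -0.53 and miR-141-3p at -0.46 were lower, miR-200b-3p at 0.59 was higher, and miR-200a-3p and miR-375-3p did not pass the test. miR-200c-3p passed it with neither TMM nor DESeq2 scaling. The lymphoid miR-150-5p was lower at -1.34 and miR-143-3p at -0.67, and miR-145a-5p, miR-126a-3p, miR-451a and miR-9-5p did not pass the test. The part of these differences in the shift of the members was not tested.

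**Figure D4:**
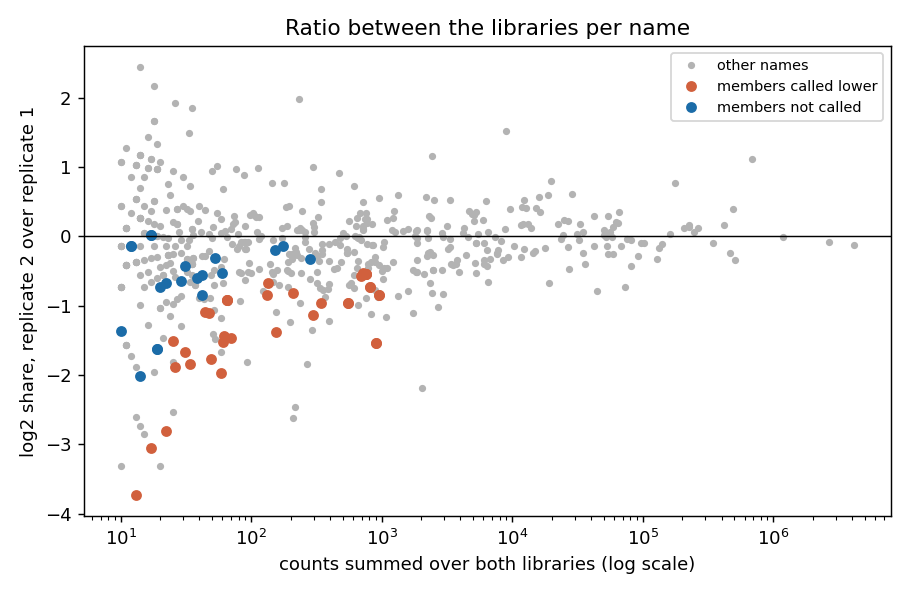
Each point is a name with at least 10 summed counts and at least 1 count in each library, with the summed count on a log x axis and the log2 ratio of its share in replicate 2 to replicate 1 on the y axis. Members called lower (orange) and members not called (blue) lie mostly below 0, and other names (grey) lie on both sides of it.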

How the data were processed

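Small RNA libraries of 2 biological replicates were analysed. Per the study's methods, reads were trimmed and aligned by Bowtie against the miRBase mouse hairpins, and the authors deposited unnormalized counts for each mature miRNA name. The handling of reads with several matches is not given in the sources used here and can set which names have equal counts. Shares were counts divided by the library total, with 95% Wilson intervals. Names and hairpins were compared by Fisher's exact test in Python 3.11.15 with SciPy 1.17.1 and Benjamini-Hochberg adjustment at 0.05, for names with at least 10 summed counts and hairpins with at least 10 in each arm. With a single condition no quasi-likelihood test was made. Scaling alternatives used edgeR 4.0.16 and DESeq2 1.42.0 in R 4.3.3. Hairpins were matched by name and RefSeq synonyms.

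Both Fisher tests were run on simulated libraries. Changes placed in abundant names moved the library totals, and unchanged names were then called, so after this was seen the range of changed names was narrowed, and then narrowed again, to less abundant names. Fewer unchanged names were then called, but some still were. In these simulations, calls against the library total depended on what abundant names did.

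The members and lists were chosen with earlier results of these data known. Named were members with at least 100 summed counts, hairpin names with at least 100 over both arms, groups of members with equal counts, the highest and lowest ratios, miR-21a-5p, miR-574-5p, miR-1187, markers and the 2 other clusters; miR-466k, miR-466i, miR-467f and miR-32-3p, both members with a ratio above 0, and the opposite arms of names with equal counts were named after their values were seen. The grouping by sequence covered the 8 members with a sequence.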

Additional observations from a re-analysis of the deposited data

How the results depend on the processing

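The mean member share ran from 0.0598% with equal counts entered once to 0.1196% of a total without miR-21a-5p, against 0.0871%, and fell to 0.0456% when the nearly equal 3p names of miR-466a, b, c, e and p were also entered once. Each library alone gave 0.0621% and 0.112%, and with 2 libraries the SD is set by that gap and is no measure of stability. Detection in both libraries gave 39 of 80 members at a minimum of 10 counts in every library, beside 448 of all 1915 names. With a single library it gave 64 to 70 members. Over all names, 776 were detected in both libraries, with a further 115 in replicate 1 alone and 122 in replicate 2 alone. Members lower in replicate 2 numbered 26 to 32 under the alternatives, against 36 of 56, but some alternatives tested fewer members. At a minimum of 50 summed counts 26 of 31 were lower, beside 164 of 383 of all names (42.8%). With equal counts tested once 29 of 39 were lower, beside 173 of 513 (33.7%). With the nearly equal miR-466 3p names tested as 1, 32 of 52 were lower, beside 175 of 584 (30.0%). Member hairpins that differed in arm use numbered 2 with a minimum of 10 counts in both arms together and 2 without hairpins that have an arm of equal counts, against 4, and of these 2 and 1 were among the 4. Members with equal counts numbered 14 of 31 at a minimum of 50 summed counts, beside 3 of 352 other names, and 40 of 71 at a minimum of 1, beside 52.3% of 942 other names, against 25 of 56. Of the 22 named members none had a log2 ratio above 0 with TMM or DESeq2 size factors, where miR-466g, which passed no test, was at -0.01 and 0, and miR-466c-5p passed the test with neither. The ratio of miR-21a-5p turned from -0.12 to 0.0077 with TMM and 0.023 with DESeq2 size factors. The share of names with all hairpins in Sfmbt2, the share without miR-467a-5p and miR-467b-5p, and the shares and calls with the nearly equal miR-466 names entered as 1 were added after seeing the data. No paired analysis was possible because the libraries form 1 group.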
